A study of Mus musculus with 4 samples.

Results

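Eph receptors and ephrins that are known from the intestinal crypt were followed through 4 expression arrays of mouse intestinal organoids. The genes were the receptors Ephb2, Ephb3, Ephb4, Ephb6, Epha1 and Epha2 and the ligands Efna1, Efnb1 and Efnb2, 9 genes in all. Members were all probe sets whose gene symbol in the platform's annotation was exactly 1 of these names, which gave 16 probe sets for 8 of the 18194 genes with a probe set. No probe set is named Ephb2 in that annotation, so Ephb2, a receptor of crypt progenitors, is not analysed here.

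All organoids were Apc fl/fl, so the controls carried the floxed alleles too. One arm received 4-hydroxytamoxifen (4OHT) for 24 h to recombine Apc and the other arm none, and each arm was sampled on day 4 and on day 6. That makes 4 groups (untreated day 4, 4OHT day 4, untreated day 6, 4OHT day 6) of 1 array, so no group has a spread of its own. The labels call the 4OHT organoids Apc-deficient; the Cre that 4OHT activates, the age and sex of the mice and the number of cultures are not given in the sources used here. No array holds 4OHT-treated organoids without floxed alleles, so loss of Apc and exposure to 4OHT cannot be told apart.

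Eph receptors are receptor tyrosine kinases whose ligands, the ephrins, are bound to the surface of neighbouring cells. Contact between them sends signals into both cells, usually causing repulsion, and sorts cells into separate compartments. In the intestine, Wnt signalling through beta-catenin and TCF factors drives EphB receptors at the crypt base, while ephrin-B ligands are highest toward the villus, and the opposed gradients keep Paneth cells and progenitors in place. Apc belongs to the complex that degrades beta-catenin, and its loss activates Wnt signalling. The arrays measure RNA only, not protein, contact between cells or their position.

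Values are deposited intensities, and differences were taken after log2(intensity + 16), a scale that makes the differences of dim probe sets smaller than they are. Folds are on this scale too, unless another pseudocount is named. Where a value is given as times an intensity, it is a ratio of intensities without the 16. Levels are compared between arrays for the same probe set and never between probe sets. A probe set was tested where its highest intensity on the 4 arrays was at least 20.9, the median of all values, which 23044 probe sets of 1 gene did. Of the 16 member probe sets, 12 passed, for 7 genes. The other 4 were the 1 probe set of Ephb6, 1 of the 3 of Epha1 and 2 of the 4 of Efnb2. All 7 epithelial markers passed this filter, with a summed intensity of 14740 to 26373 over the arrays. Of endothelial markers 4 of 7 passed (87.9 to 147), of fibroblast and muscle markers 5 of 8 (124 to 216) and of immune markers 4 of 6 (132 to 237). These sums come from different probe sets and do not measure the makeup of the cultures. None of these markers is listed at 0. Control probe sets differed between the arrays. The 3' minus 5' difference of Actb in log2 intensity, which is larger where RNA or its copy is shortened, was 2.96 and 3.90 at day 4 (untreated, 4OHT) and 1.72 and 2.34 at day 6. That of Gapdh was 1.42 and 2.29, then 0.86 and 1.42. It was thus larger on the 4OHT array of each day, and larger at day 4 than at day 6 in each arm. Its part in the differences given here, with 4OHT or over time, was not tested. The arrays are bulk samples, in which fewer cells of a type and less RNA per cell cannot be told apart.

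**Figure D1:**
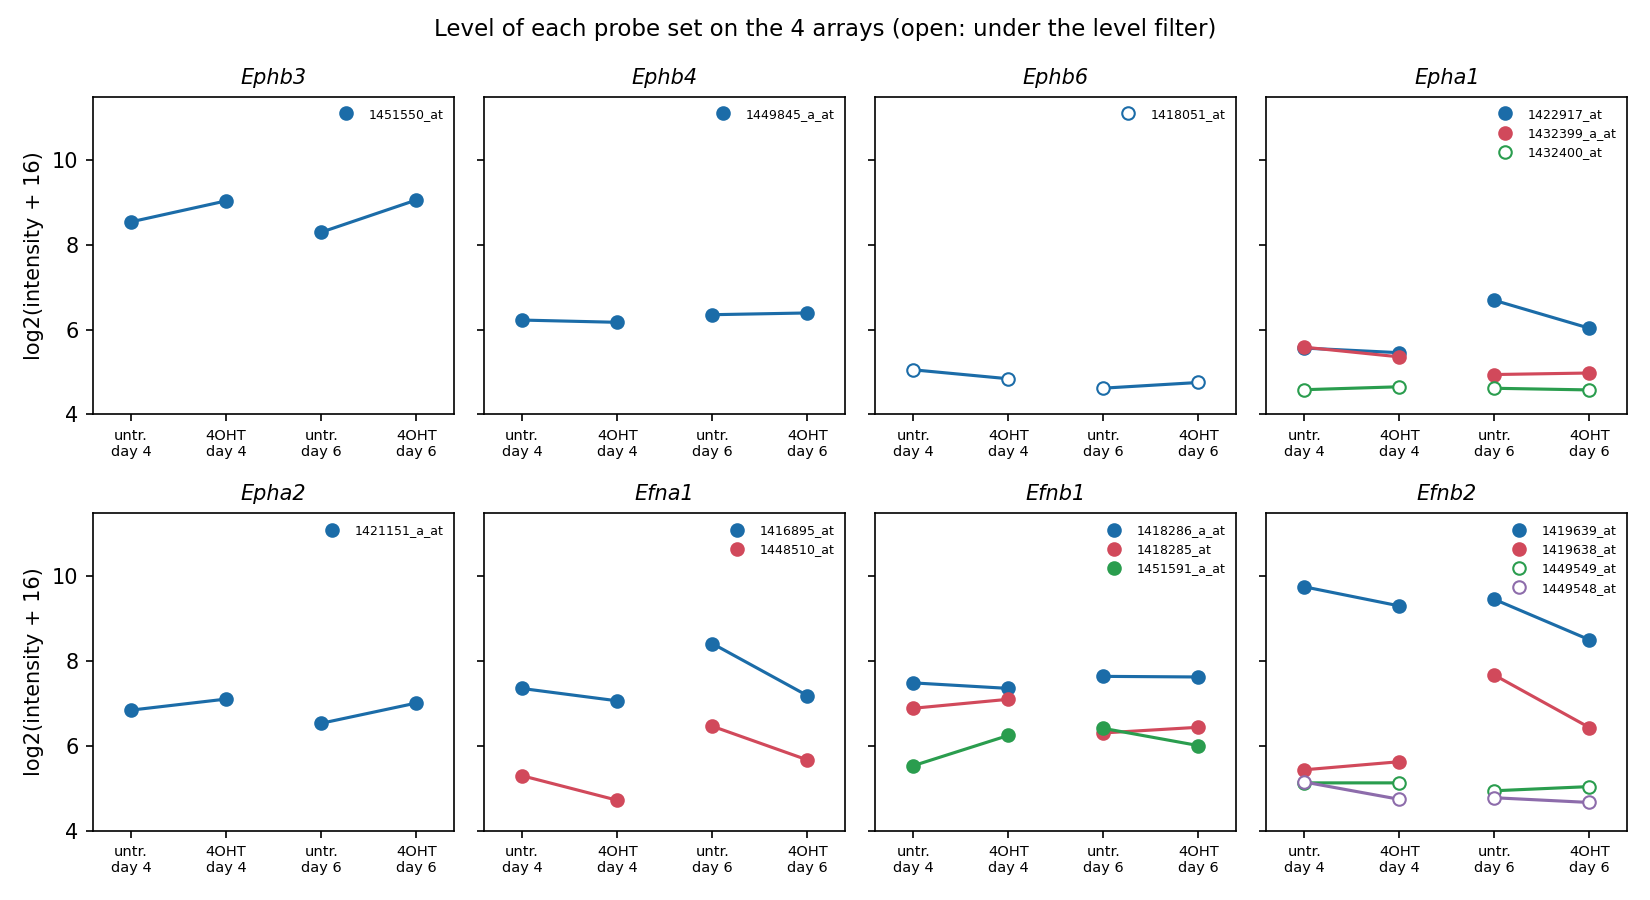
Level of each of the 16 probe sets, as log2(intensity + 16), on the 4 arrays; lines join the untreated and 4OHT arrays of the same day, and open points mark the 4 probe sets under the level filter. Ephb3 and Epha2 lie higher on both 4OHT arrays, while both Efna1 probe sets and the brightest Efnb2 probe set lie lower on both.

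Ephb3 and Epha2 were the receptors with higher values on both 4OHT arrays, and Efna1 and Efnb2 were the ligands with the farthest lower values. Their promoters, 250 bases before to 50 after the RefSeq transcription start (GRCm38.p6, 5' to 3' on the gene's strand), are shown because EphB receptors are known as TCF targets. Capitals mark the letters CTTTGA, the core of the TCF motif, searched on both strands (TCAAAG on the other); it overlaps no other motif searched. For Efna1, the farther upstream of 2 starts is shown.
Ephb3: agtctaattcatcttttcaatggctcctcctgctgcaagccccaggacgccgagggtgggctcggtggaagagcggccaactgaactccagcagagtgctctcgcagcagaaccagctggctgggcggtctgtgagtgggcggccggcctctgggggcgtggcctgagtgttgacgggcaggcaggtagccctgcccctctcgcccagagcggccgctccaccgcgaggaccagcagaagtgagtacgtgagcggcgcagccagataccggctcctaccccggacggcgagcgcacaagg
Epha2: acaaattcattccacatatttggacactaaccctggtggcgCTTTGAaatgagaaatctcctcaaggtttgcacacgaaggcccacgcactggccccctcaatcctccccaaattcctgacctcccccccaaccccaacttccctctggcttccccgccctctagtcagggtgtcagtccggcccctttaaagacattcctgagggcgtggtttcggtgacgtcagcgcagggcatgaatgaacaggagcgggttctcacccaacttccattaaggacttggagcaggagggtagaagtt
Efna1: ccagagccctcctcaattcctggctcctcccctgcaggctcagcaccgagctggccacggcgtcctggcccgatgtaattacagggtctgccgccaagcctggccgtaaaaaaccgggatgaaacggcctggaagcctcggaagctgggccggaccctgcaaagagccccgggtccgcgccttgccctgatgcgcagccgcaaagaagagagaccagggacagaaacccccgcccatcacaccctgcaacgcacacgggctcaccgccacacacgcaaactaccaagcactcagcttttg
Efnb2: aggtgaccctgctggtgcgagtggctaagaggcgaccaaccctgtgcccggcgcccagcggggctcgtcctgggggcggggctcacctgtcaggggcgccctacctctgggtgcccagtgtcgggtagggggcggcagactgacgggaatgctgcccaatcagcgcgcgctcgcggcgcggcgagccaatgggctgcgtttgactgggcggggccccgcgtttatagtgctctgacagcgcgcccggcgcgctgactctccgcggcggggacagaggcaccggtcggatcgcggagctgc
These windows lie at chr16:21204545-21204844 on the plus strand for Ephb3, chr4:141300971-141301270 on the plus strand for Epha2, chr3:89280902-89281201 on the minus strand for Efna1 and chr8:8661193-8661492 on the minus strand for Efnb2. All 9 listed genes matched the RefSeq table, with 10 promoters in all. Epha2 held the letters once, 209 bases before the start, and the other 9 promoters did not hold them. Of all 32851 promoters of this length in the table, 16% held them. A match is a description of the window and not evidence of a site. GC content was 66.7% for Ephb3, 54.7% for Epha2, 63.7% for this Efna1 window and 72.3% for Efnb2, against a median of 52.7% over the table.

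The first question was what differed once recombination of Apc had been induced. Receptor and ligand probe sets did not differ in a common direction. Ephb3 and Epha2 were higher on both days, Efna1 and the brightest Efnb2 probe set were lower on both days, and Ephb4 and most of Efnb1 differed little. No member was at least 2-fold apart at day 4, and 2 of 12 probe sets, both of ligands, were at least 2-fold lower at day 6. With a pseudocount of 1, 1 member was 2-fold apart at day 4 and 3 at day 6. None of the 12 passed limma's test over both days at an adjusted p of 0.05.

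Ephb3 is the EphB receptor known for the position of Paneth cells at the crypt base. Its 1 probe set, 1451550_at, read 357 (untreated) and 509 (4OHT) at day 4, and 298 and 517 at day 6. Both 4OHT arrays lay above both untreated arrays. The difference was 0.50 at day 4 and 0.76 at day 6, or 1.43 and 1.73 times the untreated intensity. The 4OHT effect over both days was 0.63 ± 0.20 (SE; limma adjusted p = 0.217). Of all tested probe sets, 160 (0.694%) were at least as far above on both days. The receptor was therefore higher on 2 of 2 days, with no call at 2-fold or by the test.

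Markers of the crypt base were also higher on the 4OHT arrays. Of 5 measured Paneth cell markers, 3 rose (Mmp7, Ang4 and Itln1). The summed intensity of all 5 was 28964 (untreated) and 46532 (4OHT) at day 4 and 12502 and 43260 at day 6. Much of it came from Lyz1, which did not pass. Lyz1 read 17233 and 23230 at day 4 and 8766 and 23910 at day 6. All 7 stem cell markers were higher on both days, with medians of 0.53 and 0.76, except that Olfm4 at day 4 (0.01) turned to -0.05 under quantile normalization. Limma's test called 0 of the 7, of which 5 had an unadjusted p under 0.05. Whether the Ephb3 difference goes with the number of such cells was not tested.

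Ephb4, the receptor of ephrin-B2 best known from veins, was nearly level. Its probe set 1449845_a_at read 58.7 and 56.0 at day 4 (untreated, 4OHT) and 65.6 and 67.9 at day 6. The differences of -0.05 and 0.04 have opposite signs and no array stands apart. Over both days the effect was -0.0059 ± 0.20 (SE; adjusted p = 0.999). Ephb6, a receptor that lacks kinase activity, was under the level filter. Its intensities were 17.1 and 12.6 at day 4 and 8.53 and 10.9 at day 6, too dim for a direction to be read.

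Epha1 is an epithelial A-class receptor, and its probe sets disagreed. Probe set 1422917_at read 31.3 and 27.8 at day 4 and 87.2 and 49.3 at day 6. Its highest value was on the untreated array of day 6, and it differed with 4OHT by -0.11 and -0.66 (effect -0.38 ± 0.22, SE, adjusted p = 0.539). At least as far below on both days were 1028 tested probe sets (4.46%). Probe set 1432399_a_at read 31.9 and 24.9 at day 4 and 14.7 and 15.4 at day 6, with differences of -0.23 and 0.04 (adjusted p = 0.921). The first was thus brightest at day 6 and the other at day 4. The third, 1432400_at, was under the filter at 7.82 to 9.09.

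Epha2, an epithelial receptor whose main ligand is ephrin-A1, had a like order of arrays to Ephb3. Its probe set 1421151_a_at read 98.7 and 121 at day 4 and 76.4 and 113 at day 6. Both 4OHT arrays lay above both untreated arrays. The differences were 0.26 and 0.48, or 1.23 and 1.48 times the untreated intensity. The effect was 0.37 ± 0.20 (SE; adjusted p = 0.525), and 721 of the tested probe sets (3.13%) were at least as far above on both days.

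Efna1 encodes ephrin-A1, a ligand held to the membrane by a lipid anchor. Probe set 1416895_at read 147 and 118 at day 4 and 325 and 129 at day 6. The untreated array of day 6 stood apart and the other 3 lay close together. The difference with 4OHT was -0.29 at day 4 and -1.23 at day 6, where it was 2.34-fold lower. The effect over both days was -0.76 ± 0.24 (SE; adjusted p = 0.206), and 229 tested probe sets (0.994%) were at least as far below on both days.

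The dimmer Efna1 probe set, 1448510_at, read 23.2 and 10.2 at day 4 and 72.1 and 34.8 at day 6. It was lower with 4OHT on each day, by 0.58 and 0.80 on the log2 scale, and both day 6 arrays lay above both day 4 arrays. With a pseudocount of 1 the differences were -1.11 and -1.03, past 2-fold on both days. The effect was -0.69 ± 0.20 (SE; adjusted p = 0.163), and 342 tested probe sets (1.48%) were at least as far below. The Efna1 probe sets therefore both pointed downward with 4OHT on each day, but differed in how much of it was present at day 4.

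Efnb1 encodes ephrin-B1, a transmembrane ligand of EphB receptors, and its 3 tested probe sets gave no common direction. Probe set 1418286_a_at read 163 and 148 at day 4 and 183 and 181 at day 6. Those readings differed by -0.13 and -0.01, the latter turning to 0.08 under quantile normalization. At least as far below on both days were 4444 tested probe sets (19.3%). Probe set 1418285_at read 102 and 121 at day 4 and 63.0 and 70.6 at day 6, a difference of 0.21 and 0.13. Within each day its 4OHT array was the higher, and 2853 tested probe sets (12.4%) were at least as far above on both days. Probe set 1451591_a_at read 30.2 and 59.8 at day 4 and 69.1 and 48.2 at day 6, so that it was higher with 4OHT by 0.71 at day 4 and differed by -0.41 at day 6. Adjusted p for the 4OHT effect was 0.822 to 0.944 over the 3.

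Efnb2 encodes ephrin-B2, a ligand of EphB receptors that is also a marker of arteries. Its brightest probe set, 1419639_at, read 846 and 615 at day 4 and 686 and 346 at day 6. Both 4OHT arrays lay below both untreated arrays, and the 4OHT array of day 6 was the lowest. The differences were -0.45 and -0.96, the latter 1.94-fold. The effect over both days was -0.70 ± 0.21 (SE; adjusted p = 0.177), and 328 tested probe sets (1.42%) were at least as far below on both days.

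Probe set 1419638_at of Efnb2 read 27.2 and 33.3 at day 4 and 187 and 70.2 at day 6. Its untreated array of day 6 stood apart, as for Efna1. With 4OHT it was 0.19 higher at day 4 and 2.36-fold lower at day 6 (-1.24), with an effect over both days of -0.52 ± 0.29 (SE; adjusted p = 0.530). The other probe sets, 1449549_at and 1449548_at, were under the filter at 14.7 to 18.9 and 9.32 to 19.4. Efnb2 and Ephb4 are known from blood vessels. Summed intensity of the 7 endothelial markers was 147 on both day 4 arrays and 87.9 and 102 at day 6 (untreated, 4OHT). Of these markers 3 were under the level filter, and the 4 past it went both ways with 4OHT at day 4, from -0.50 to 0.76. The part of vessel cells in the Efnb2 and Ephb4 values was not tested.

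Ephrins are known to be higher in differentiated cells than at the crypt base. Of 7 measured enterocyte markers, 6 fell with 4OHT. The summed intensity of all 7 was 3276 (untreated) and 1178 (4OHT) at day 4 and 10664 and 5163 at day 6. The sum was highest on the untreated array of day 6. So were both Efna1 probe sets, Efnb2 1419638_at, Efnb1 1451591_a_at and, narrowly, Efnb1 1418286_a_at (183 against 181 with 4OHT). The brightest Efnb2 probe set was instead highest on the untreated array of day 4 (846). Efnb1 1418285_at was highest on the 4OHT array of day 4 (121). The part of enterocyte number in the ligand differences was not tested.

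**Figure D2:**
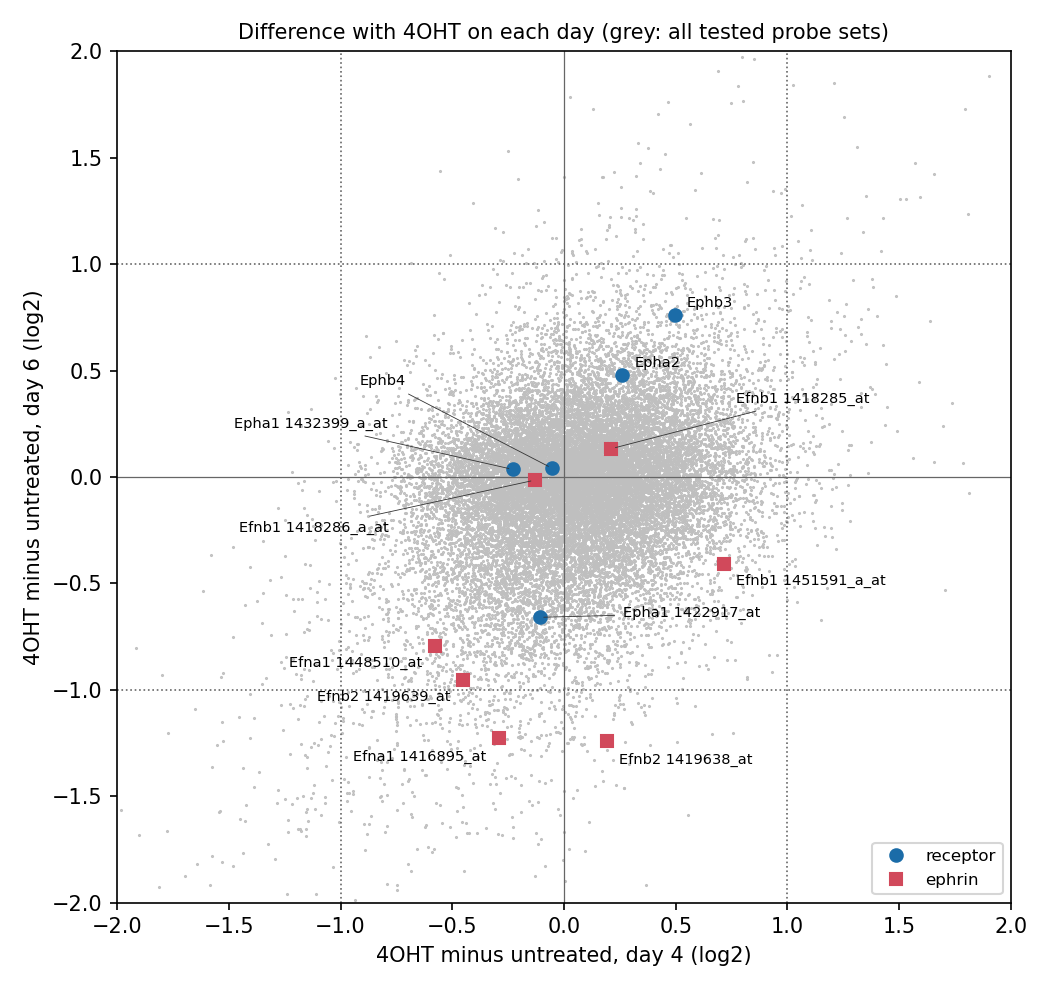
Difference between the 4OHT and untreated arrays, in log2(intensity + 16), at day 4 (horizontal) and day 6 (vertical) for 12 member probe sets (circles, receptors; squares, ephrins) and all tested probe sets (grey; those beyond the axes are not drawn). Dotted lines mark 2-fold; Ephb3 and Epha2 lie at the upper right, and Efna1 and Efnb2 hold the lowest values at day 6.

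Counts of members are given here beside the share of all tested probe sets. At day 4, 0 of 12 member probe sets were at least 2-fold higher (0.903% of all tested) and 0 were at least 2-fold lower (0.907%). At day 6, 0 were higher (0.668%), and the 2 that were lower, Efna1 1416895_at and Efnb2 1419638_at, compare with 2.5% of all tested. Limma called 0 members higher (0.334% of all tested) and 0 lower (0.981%). At an unadjusted p under 0.05 there were 4 members (Ephb3, both Efna1 probe sets and Efnb2 1419639_at), against 11.9% of all tested, and a fit without day as a term called 0 members and 0 probe sets in all. With a pseudocount of 1 or 64, or with no level filter, the test also called 0 probe sets, so no gene of the marker, target or partner lists was called with 4OHT under those settings. By direction, 3 member probe sets were higher on both days, 5 lower on both and 4 opposite, where the shares of all tested were 29.5%, 27.1% and 43.0%. The median difference of the 12 was -0.08 at day 4 and -0.21 at day 6, against 0.05 and -0.02 over all tested. The Actb and Gapdh 3' minus 5' differences were larger with 4OHT by 0.94 and 0.87 at day 4 and by 0.62 and 0.56 at day 6.

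The comparison of day 6 with day 4 asked how the members differed over time in each arm. In untreated organoids the ligands Efna1 and Efnb2 and the receptor Epha1 each had a probe set at least 2-fold higher at day 6. None reached 2-fold in 4OHT organoids on this scale, but with a pseudocount of 1 Efna1 1448510_at (1.67) and Efnb2 1419638_at (1.05) did, and under quantile normalization Efnb1 1418285_at (-1.05) and Efnb2 1419639_at (-1.25). Over both arms, 3 probe sets rose (Efnb2 1419638_at, Efna1 1448510_at and Epha1 1422917_at) and Efnb1 1418285_at fell. The scaling between the days is unknown, so these directions rest on the deposited scale except where another is named.

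Efnb2 1419638_at had the widest range over time among the members. It went from 27.2 to 187 in untreated organoids, a difference of 2.23 (4.71-fold), and from 33.3 to 70.2 with 4OHT (0.81). The day effect was 1.52 ± 0.29 (SE; adjusted p = 0.0014). The brightest Efnb2 probe set went the other way, with differences of -0.30 and -0.80 and a day effect of -0.55 (adjusted p = 0.0513). The gene as a whole therefore has no direction over time in these data.

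Efna1 1448510_at was higher at day 6 by 1.17 in untreated and 0.95 in 4OHT organoids, with a day effect of 1.06 ± 0.20 (SE; adjusted p = 0.00141). With a pseudocount of 1 these differences were 1.60 and 1.67, so neither arm is the larger on both scales. Efna1 1416895_at differed by 1.06 in untreated organoids and by 0.12 with 4OHT, and its day effect was 0.59 (adjusted p = 0.0618). Under quantile normalization these values were 0.38, -0.33 and 0.03, so that its 2-fold call was lost. Epha1 1422917_at differed by 1.13 and 0.58 (day effect 0.85 ± 0.22, SE, adjusted p = 0.00743), and under quantile normalization its untreated difference of 0.87 was also under 2-fold. Its other tested probe set differed by -0.65 and -0.38 and did not pass (adjusted p = 0.055).

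Efnb1 1418285_at fell, with differences of -0.58 in untreated and -0.66 in 4OHT organoids (day effect -0.62 ± 0.20, SE, adjusted p = 0.0243). Efnb1 1451591_a_at differed by 0.88 and -0.24 and Efnb1 1418286_a_at by 0.15 and 0.27, and neither passed. The latter turned to -0.51 and -0.21 under quantile normalization. No direction over time is shared by the Efnb1 probe sets.

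On the deposited scale the tested EphB and EphA receptors other than Epha1 differed little over time. Ephb3 differed by -0.25 in untreated and 0.02 in 4OHT organoids, which became -0.91 and -0.43 under quantile normalization. Ephb4 differed by 0.13 and 0.22, which turned to -0.26 and -0.08. Epha2 differed by -0.31 and -0.09, the latter turning to 0.004 with each array centred on its median. Under quantile normalization the Epha2 values were -0.82 and -0.54. Adjusted p for the day effect was 0.412 to 0.655 for these 3 genes on the deposited scale, while under quantile normalization Ephb3 (-0.67) and Epha2 (-0.68) fell.

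**Figure D3:**
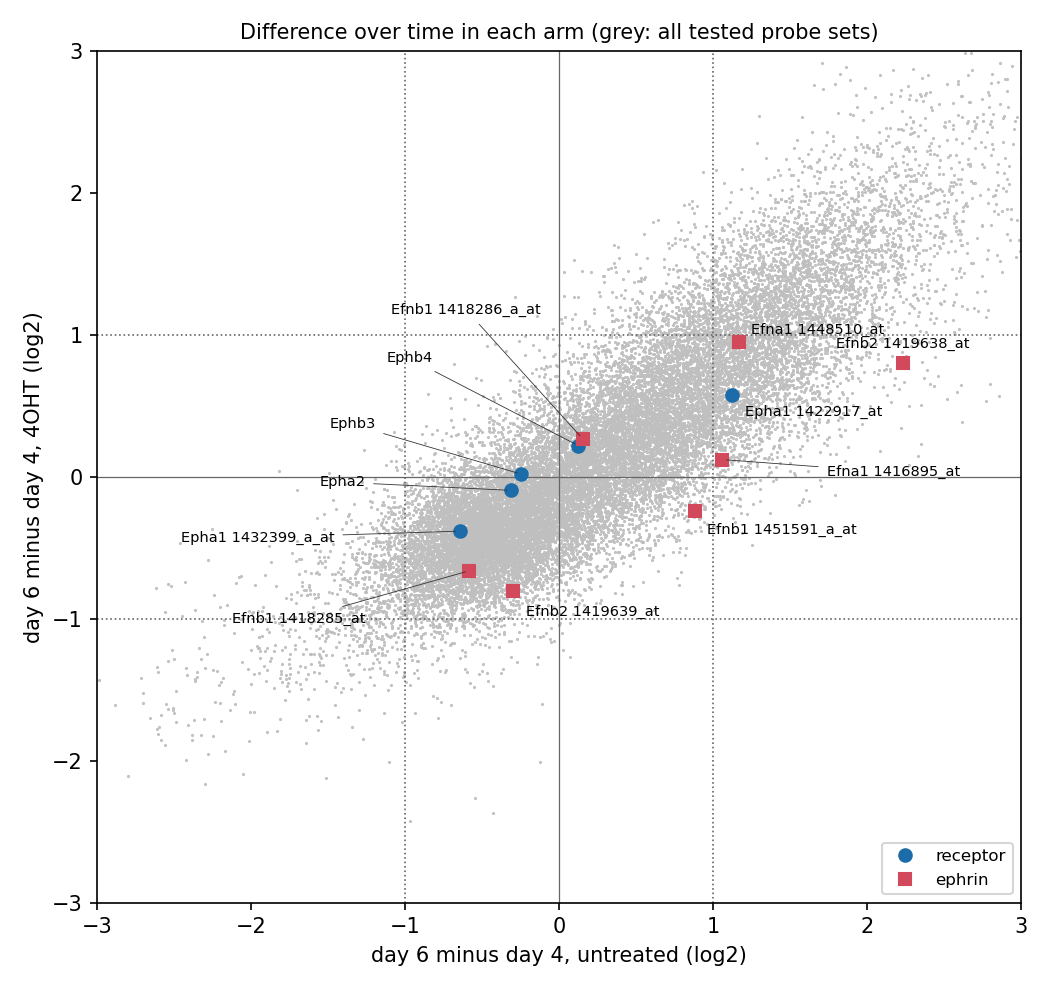
Difference between day 6 and day 4, in log2(intensity + 16), in untreated (horizontal) and 4OHT organoids (vertical) for the 12 member probe sets (circles, receptors; squares, ephrins) and all tested probe sets (grey; those beyond the axes are not drawn). Dotted lines mark 2-fold; 4 member probe sets lie to the right of it in untreated organoids and none lies beyond it in 4OHT organoids.

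A difference over time was common on these arrays. In untreated organoids 4 of 12 member probe sets were at least 2-fold higher at day 6 (23.7% of all tested) and 0 were lower (4.43%). With 4OHT, 0 were at least 2-fold higher (16.2%) and 0 lower (2.47%). The test called 3 members higher (34.5% of all tested) and 1 lower (15.6%). The split over all tested probe sets depended on the scaling: 84.3% of 2-fold calls over time in untreated organoids were upward on the deposited scale and 56.6% under quantile normalization, and 86.8% and 60.5% with 4OHT. For limma's day calls it was 68.9% and 52.2%, and for 2-fold calls with 4OHT at day 6 21.1% and 32.5%. Under quantile normalization the median difference over time in untreated organoids moved from 0.21 to -0.03 over all tested and from 0.14 to -0.39 over the members. With it the test called 3 members higher and 4 lower, the added ones being Ephb3, Epha2 and Efnb2 1419639_at (-1.09). Hybridization spikes averaged 12.2 and 11.8 in log2 intensity at day 4 (untreated, 4OHT) and 9.79 and 10.7 at day 6. The poly-A spikes averaged 11.6 and 11.1, then 8.66 and 10.03. Between the arms (4OHT minus untreated), hybridization spikes differed by -0.38 at day 4 and 0.91 at day 6, and poly-A spikes by -0.45 and 1.37. Over time, the 3' minus 5' difference of Actb changed by -1.24 in untreated and -1.56 in 4OHT organoids, and that of Gapdh by -0.56 and -0.87. The part of these control differences in the members' values over time or in their 4OHT differences was not tested.

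The other 13 Eph receptor and ephrin genes had 29 probe sets, of which 12 passed the filter, for 8 genes. By each gene's brightest probe set, limma called 0 of 8 with 4OHT, and 0 at an unadjusted p under 0.05. Their median difference was -0.01 at day 4 and 0.19 at day 6, against 0.06 and -0.004 over 13192 genes. Epha4, a receptor that binds ephrins of both classes, read 153 and 158 at day 4 and 66.2 and 110 at day 6, with differences of 0.05 and 0.62 (adjusted p = 0.617). Its other 3 tested probe sets ran from -0.13 to 0.37 (day 4) and lay between 0.31 and 0.44 on day 6, so they share a direction at day 6 alone. Efna3, an ephrin-A ligand, differed by 0.21 and 0.25 (adjusted p = 0.736), and its other tested probe set by 0.50 and -0.41. The receptors Epha7 and Epha5 were under the filter, at 7.34 to 19.1 and 9.62 to 15.5. Over time, 1 of the 8 genes rose and 5 fell by their brightest probe sets, where 34.5% of all 13192 genes rose and 17.8% fell. Epha4 was among the 5 (day effect -0.75, limma adjusted p = 0.0146). Another of its tested probe sets passed in the other direction (0.73, adjusted p = 0.0122), so Epha4 has no direction over time here. The others that fell, Epha10, Epha8, Efna5 and Efnb3, were dim by these probe sets, at most 68.0 on any array.

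Proteins that carry or end Eph and ephrin signals were measured for 26 of 27 genes, of which 24 passed the filter. Limma called 0 with 4OHT, and 5 at an unadjusted p under 0.05, and the medians were -0.04 and -0.03. The adaptor Crk differed by -0.72 at day 4 and -0.55 at day 6 (effect -0.63 ± 0.20, SE, adjusted p = 0.204). Sdcbp, which encodes syntenin, a binding partner of ephrin-B tails, differed by -0.90 and -0.49 (-0.70 ± 0.21, adjusted p = 0.171). The GTPase Rac1 differed by -0.48 and -0.60 (adjusted p = 0.300) and the adaptor Nck1 by -0.44 and -0.55 (adjusted p = 0.352). All 4 were lower on both 4OHT arrays and none passed. Over time, 14 of the 24 rose and 0 fell, where 34.5% of all 13192 genes rose and 17.8% fell. Adam10, the protease that cuts ephrins, was among the 14, with a day effect of 1.98 ± 0.21 (SE, limma adjusted p = 4.01e-05). The count rests on the deposited scale. Under quantile normalization Rhoa, also among the 14, moved from 0.66 and 0.72 (untreated, 4OHT) to -0.002 and 0.28. For Adam10 the values were 2.20 and 1.76, then 1.52 and 1.30. Adam10 and Rhoa were picked outside the naming rule, with their values known.

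EphB receptors are known as Wnt targets, so the members are set beside 15 other measured Wnt target genes. With 4OHT 3 of these rose (Cd44 by 1.40 ± 0.20, Rnf43 by 1.08 ± 0.20 and Nkd1 by 1.73 ± 0.29, SE; adjusted p = 0.0075, 0.0252 and 0.0158) and 0 fell. Axin2, a feedback inhibitor of the pathway, did not pass (0.82 ± 0.20, adjusted p = 0.0851). Myc (-0.51 at day 4 and 0.23 at day 6), Lef1 (-0.12 and 0.01) and Notum (0.31 and -0.12) had opposite signs on the days. They are named here outside the naming rule. The median of the 15 was 0.61 at day 4 and 0.72 at day 6. Ephb3, at 0.50 and 0.76, lay near these medians. The 7 member genes, by their brightest probe set, had medians of -0.11 and -0.01.

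**Figure D4:**
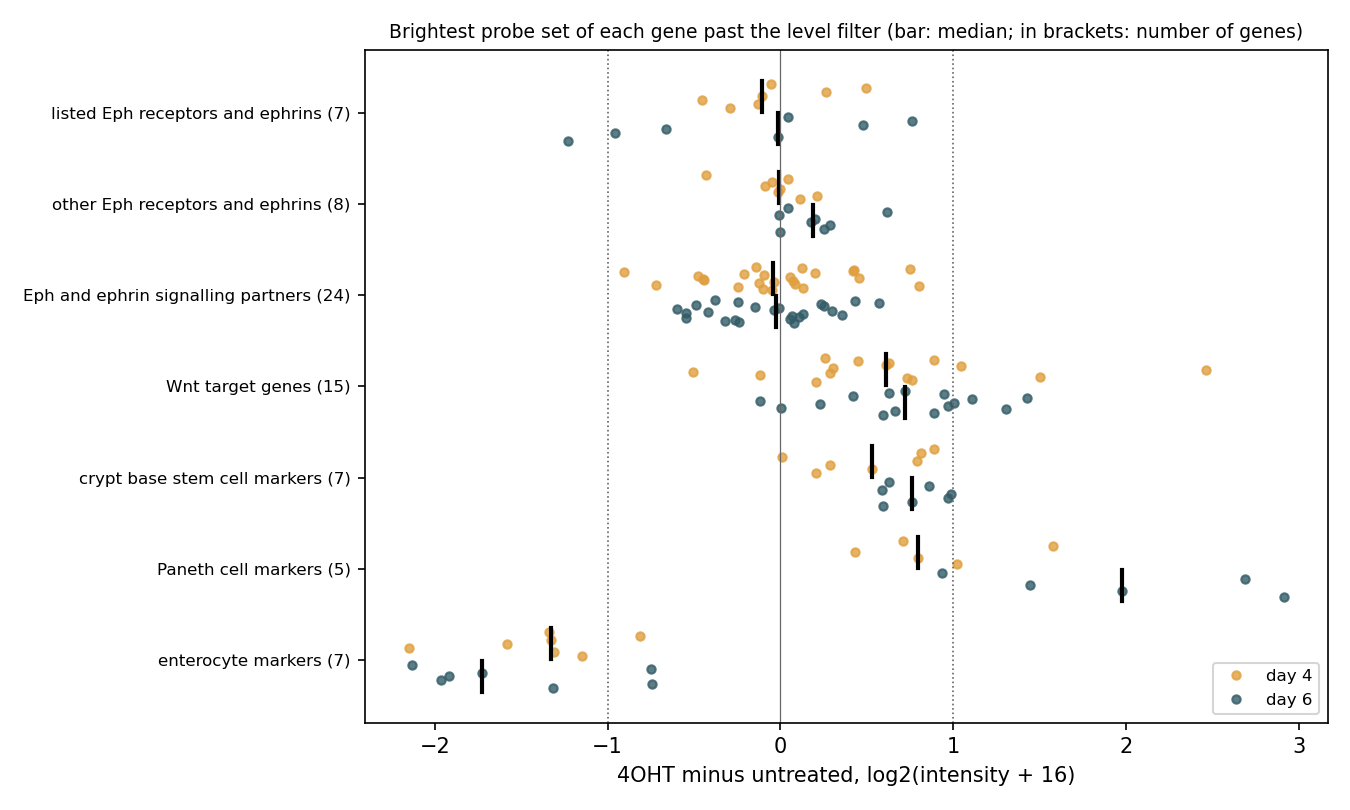
Difference between the 4OHT and untreated arrays, in log2(intensity + 16), for the brightest probe set of each gene past the level filter, by list, at day 4 (orange) and day 6 (dark); each point is a gene and bars are medians. Wnt targets, stem cell and Paneth cell markers have medians above 0 on both days and enterocyte markers below 0, while the listed Eph receptors and ephrins spread on both sides from -1.23 to 0.76. Lgr5, Ascl2 and Tnfrsf19 are drawn in both the Wnt target and the stem cell list, so these lists are not independent.

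Ephb3 was set against the brightest probe set of each of 13191 other genes by the Euclidean distance between profiles over the 4 arrays, each centred on its own mean. The nearest were Hmgn1 (distance 0.0713), Ammecr1l (0.0724), Cc2d1b (0.0775), Plekhg3 (0.0820) and Micu3 (0.102), where the median distance was 0.911. All 5 had the higher value on the 4OHT array of each day, as the choice by likeness fixes. With 4 arrays this is a description of these profiles only.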

How the data were processed

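Per the labels' protocols, 100 ng of total RNA from each of the 4 organoid samples was copied and biotin-labelled by in vitro transcription from the 3' end, so probe sets read mostly 3' ends. The authors deposited 1 linear intensity per probe set and array (45101 each, from 2.73 to 23910). Background correction, summarisation and scaling are not given in the sources used here. Arrays have no read depth, and their number limits the precision. Array medians were 22.0 and 21.9 at day 4 (untreated, 4OHT) and 19.3 and 19.5 at day 6. The range from the 5th to the 95th percentile was 5.77 and 5.90 on the log2 scale at day 4 and 6.89 and 6.73 at day 6.

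In the annotation, 34945 probe sets other than controls carry a single gene symbol, and only these were used. Counted with controls included, 932 carry several symbols and 9211 none. The deposited intensities were moved to log2(intensity + 16). With 1 array a group, contrasts were called at 2-fold with no p-value. Tests were run with limma 3.58.1 (R 4.3.3; lmFit, eBayes), with 4OHT and day as additive terms over 23044 probe sets, Benjamini-Hochberg adjustment and a threshold of 0.05. Its 1 residual degree of freedom is the difference of the 4OHT effect between the days, moderated toward a prior SD of 0.210 with 10.5 prior degrees of freedom. "Rose" and "fell" are used for what passed it. Nothing says that the arrays came from separate cultures, so its error may be technical. Tested on simulated data for the 4OHT effect, it called 77 of 100 probe sets changed by 1, 100 of 100 changed by 2 and 72 of 22844 unchanged. In that simulation the 72 unchanged ones were a larger share of its calls than the 0.05 the adjustment aims at. What "rose" or "fell" may thus include more false calls than the threshold states. The day effect was not simulated.

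Every member probe set is given; up to 4 genes of each list are named, those with the largest smaller difference of both days in one direction. Lists use the brightest probe set of each gene. Members and lists were chosen with earlier results of these data known. Alternatives were pseudocounts of 1 and 64, median centring, quantile normalization, no level filter or one at the 75th percentile, the brightest probe set, no _x_at or _s_at probe sets, 1.5-fold and 3-fold, a threshold of 0.1 and a fit of 1 factor. Promoters are from RefSeq (GRCm38.p6). Python 3.11.15 was used with numpy 2.4.6, pandas 2.3.3 and, for plots, matplotlib 3.10.9.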

Additional observations from a re-analysis of the deposited data

Results flagged for a closer look

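Some member probe sets had effects of opposite sign in the compared pairs of arrays; with 1 array a group, no such difference was tested. The 4OHT effect on Efnb2 1419638_at was 0.19 at day 4 and -1.24 at day 6, a difference of -1.43. For Efnb1 1451591_a_at it was 0.71 at day 4 and -0.41 at day 6, a difference of -1.12, which also makes its difference over time 0.88 in untreated and -0.24 in 4OHT organoids. Epha1 1432399_a_at had 4OHT effects of -0.23 and 0.04, a difference of 0.26. Ephb4 1449845_a_at had -0.05 and 0.04, a difference of 0.0941. Ephb3 differed over time by -0.25 in untreated and 0.02 in 4OHT organoids, a difference of 0.27. Of all tested probe sets, 43.0% had 4OHT effects of opposite sign on the days.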

How the results depend on the processing

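No member passed the test of the 4OHT effect under any of the settings run (adjusted p at least 0.0936, reached by Efna1 1416895_at). Over all tested probe sets that test called 303, and 0 with pseudocounts of 1 or 64, with no level filter or without day as a term, 620 under quantile normalization and 523 at a threshold of 0.1. The day calls held for Epha1 1422917_at in 10 of 10 settings and for Efna1 1448510_at and Efnb1 1418285_at in 9 of 9, and for Efnb2 1419638_at in 8 of 9 (adjusted p = 0.0626 with no level filter). Members called by day were 4, and 7 under quantile normalization or at a threshold of 0.1; of all tested, 11553 and 7103 by the brightest probe set of each gene.

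Counts at least 2-fold apart moved with the fold and the pseudocount. With 4OHT at day 4 they were 417 over all tested, and 1476 and 106 with pseudocounts of 1 and 64, 705 under quantile normalization, and 2808 and 47 at 1.5-fold and 3-fold; the members had 0, and 1 with a pseudocount of 1 or at 1.5-fold. At day 6 they were 730, and 1176, 363, 2857 and 168 for the same pseudocounts and folds; the members had 2, and 1 with a pseudocount of 64 or by the brightest probe set, 6 at 1.5-fold and 0 at 3-fold.

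Over time in untreated organoids they were 6485, and 9934, 3433, 12315 and 2405 for those pseudocounts and folds, and 3877 by the brightest probe set. The members had 4, and 6 with a pseudocount of 1 or at 1.5-fold, 1 with a pseudocount of 64 or at 3-fold, and 2 by the brightest probe set. With 4OHT they were 4313, and 7127, 2013, 9681 and 1336, and 2515 by the brightest probe set. The members had 0, and 2 with a pseudocount of 1 or quantile normalization, 1 with median centring and 4 at 1.5-fold. The cause of these movements was not tested, beyond what the fold, the threshold and the number of probe sets fix.

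Leaving out an array was not run, since each group has 1. No paired analysis was possible because the labels give no replicate numbers to block on; the test itself compares the arms within each day through its day term. Dim probe sets limit what can be read: 4 of the 16 were under the level filter, and the 2-fold calls of Efnb2 1419638_at over time start from an intensity of 27.2.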
